A study of Mus musculus with 53 samples.

Results

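The genes described here are the subunits of the glutamate and GABA receptors: the 4 AMPA receptor genes (Gria1 to Gria4), 7 NMDA receptor genes (Grin), 5 kainate receptor genes (Grik), 2 delta receptor genes (Grid), 8 metabotropic glutamate receptor genes (Grm), 19 GABA-A subunit genes (Gabr) and the 2 GABA-B genes (Gabbr1 and Gabbr2). They were chosen by symbol alone, as protein-coding genes that carry 1 of these family names, which gave 47 members of 53379 genes in the count tables, 21865 of them protein-coding. Their transcripts were counted by RNA sequencing of 2 hypothalamic nuclei cut out of brain sections by laser capture, the paraventricular nucleus (PVN) and the arcuate nucleus (ARC). The mice were adult C57BL/6 animals, of 13 to 14 weeks in the protocol, either wild-type (Nnat+/+) or Nnat+/-p littermates, which inherited a null allele of the paternally expressed gene Nnat (neuronatin) from heterozygous fathers. The null allele is present in every cell and throughout life.

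Chow-fed Nnat+/-p mice were divided by body weight into non-obese (males under 35 g, females under 25 g) and obese (males over 37 g, females over 30 g) animals. The male PVN was represented by 3 wild-type, 3 non-obese and 4 obese libraries on chow and by 6 wild-type and 3 Nnat+/-p libraries on a high-fat diet (HFD, 45% as labelled). The female PVN, on chow only, had 4 wild-type, 3 non-obese and 3 obese libraries. The male ARC had 2 wild-type, 4 non-obese and 4 obese libraries on chow and 6 wild-type and 4 Nnat+/-p libraries on HFD. Libraries 5, 7 and 35, with very low totals, and library 32, which is labelled ARC but stands in the PVN count table, were left out, so that 49 of 53 libraries were used. The labels give a body weight for each library but no mouse number, so p-values measure the spread between libraries, each taken here as 1 replicate. Non-obese ARC libraries 39 and 40 share a labelled weight (34.3 g), as do wild-type female PVN libraries 1 and 2 (24.1 g). Whether either pair comes from 1 mouse is not settled by the labels.

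AMPA, NMDA, kainate and delta receptors are tetramers. The first 3 kinds are cation channels opened by glutamate and carry fast excitation, whereas delta receptors bind cerebellins and act mainly in synapse organisation. Metabotropic glutamate receptors and GABA-B receptors signal through G proteins, and GABA-A receptors are pentameric chloride channels, typically built from alpha, beta and gamma or other subunits, that carry fast and tonic inhibition. In the PVN, glutamate and GABA inputs set the firing of the vasopressin, oxytocin and corticotropin-releasing hormone neurons, and in the ARC they act on the Agrp and Pomc neurons that govern feeding.

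Totals ran from 2268021 to 8560199 counts in male PVN libraries, 6219365 to 30228973 in female PVN libraries and 1479953 to 18058097 in ARC libraries. Nnat itself lay at 224 to 584 CPM (the count scaled to a library of 1e6 counts) in the 21 wild-type libraries and at 0.268 to 13.7 CPM in the 28 Nnat+/-p libraries. The labelled nucleus was checked on neuron markers. All 5 PVN markers tested (Avp, Oxt, Sim1, Crh, Trh) were higher in male PVN and all 5 ARC markers tested were lower. Library 15, labelled PVN from a chow-fed wild-type male, stood apart: its PVN markers summed to 9.77 CPM against 150 to 2277 in the other male PVN libraries, and its ARC markers to 160 CPM against 5.75 to 25.1. It held 604 counts of Pomc and 340 of Nr5a1, a marker of the neighbouring ventromedial hypothalamus, beside 1 count of Avp and 3 of Oxt. Library 35, labelled ARC with the same body weight and left out for its low total, held Avp and Oxt but no Agrp, Npy or Pomc, and whether the nuclei of these libraries were exchanged is not settled by the labels. Library 15 was kept under its label, and the male PVN results that turned on it are given with and without it. Library 24, labelled PVN from a wild-type male on HFD, also stood apart, with PVN markers at 150 CPM (489 to 2277 in the male PVN libraries other than 15 and 24), of which Avp made up 0.896 and Oxt 1.25 CPM, and lateral hypothalamus markers at 35.8 CPM (0 to 10.0 in the same 17 libraries). Male PVN, female PVN and male ARC were each sequenced as a pool of their own, so nucleus and pool, and sex and pool, cannot be told apart.

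Summed over the 47 members, receptor transcripts made up 2273 to 3855 CPM in male PVN libraries (median 3422), 2400 to 4841 in female PVN (median 3974) and 1960 to 4534 in ARC (median 3232). Levels of different genes are set side by side as CPM per kb of exon. Gabbr1, the GABA-B subunit that binds the ligand, ranked first by its median in male PVN, female PVN and ARC, at 59.5, 70.8 and 55.0 CPM per kb. Gria1, an AMPA receptor subunit, ranked second at 50.1, 64.1 and 54.3 CPM per kb. Their order was not stable between libraries, since Gabbr1 exceeded Gria1 in 16 of 19 male PVN, 7 of 10 female PVN and 6 of 20 ARC libraries.

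Below these, in the male PVN, Grin1, the subunit that every NMDA receptor needs, had a median of 21.9 CPM per kb, and Gabbr2, the GABA-B partner that couples to the G protein, 18.6 CPM per kb. Of the kainate receptor genes Grik5, a high-affinity subunit that needs a partner such as GluK2, was highest at 15.7 CPM per kb, and of the metabotropic genes Grm3, a receptor that inhibits adenylyl cyclase, at 14.8 CPM per kb. Gria2, whose edited subunit keeps AMPA receptors impermeable to calcium, and Gria4 lay at 14.6 and 14.4 CPM per kb.

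The ARC order differed below the first 2 places. Gria2 had a median of 18.6 CPM per kb there and Gabra5, the alpha5 subunit known for tonic and extrasynaptic inhibition, 17.1 CPM per kb, which put it at rank 6. Gabra5 ranked only 27 in male PVN, at 3.85 CPM per kb, and 31 in female PVN, at 2.79 CPM per kb. In the ARC, Gria2 exceeded Gabra5, the next member, in 12 of 20 libraries, so these neighbours did not differ beyond their spread. Grm5, a metabotropic receptor that activates phospholipase C, led its family in ARC at 13.0 CPM per kb against 6.04 in male PVN, where Grm3 led. Grm7, a presynaptic receptor, lay at 6.83, 6.78 and 6.94 CPM per kb in male PVN, female PVN and ARC, and Grm4 and Grm8 at 2.06 and 1.4 CPM per kb in male PVN.

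Some members were scarcely detected. Median levels were under 1 CPM for 6 members in male PVN: Gabra6 (alpha6, known from cerebellar granule cells), Gabrp (the pi subunit, known mainly from outside the brain), Gabrr1, Gabrr2 and Gabrr3 (the rho subunits, known from the retina) and Grin3b (an NMDA receptor subunit known from motor neurons). Gabrd, the delta subunit of extrasynaptic receptors, and Grm6, the receptor of retinal ON bipolar cells, were also under 1 CPM in ARC and in female PVN, which made 8 members in each. Gabra6, Gabrr1 and Gabrr3 passed the filter on low counts in no comparison of the nuclei, which left 44 members tested there.

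The nuclei were compared in males with edgeR's quasi-likelihood test, with the group of genotype, diet and weight as a further term, and a gene was called at a Benjamini-Hochberg adjusted p under 0.05. With TMM scaling, which assumes that most genes are level between libraries, 22 of 44 members were called, 7 higher and 15 lower in PVN, where 15.9% of all genes tested were called, 8.82% higher and 7.13% lower. With library totals in place of TMM, 23 members were called, 13 higher and 10 lower, beside 32.9% of all genes (30.5% and 2.48%). The change of scale moved the median log2 fold change of all genes from 0.12 to 0.46 and that of the members from -0.13 to 0.20. The call held under both scalings for 17 members, 7 higher and 10 lower in PVN, and these are described first. Gabrb1, Gabrg3, Gabrq, Gria1 and Grm7 were called lower with TMM alone, and the estimate of Grm7 changed sign with library totals, to 0.04. Gabra4, Gria4, Grik5 and Grm4 were among those called higher with library totals alone. No member had CPM ranges that were fully separate between male PVN and ARC, as 0.028% of all genes had, or 0.107% without library 15.

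**Figure D1:**
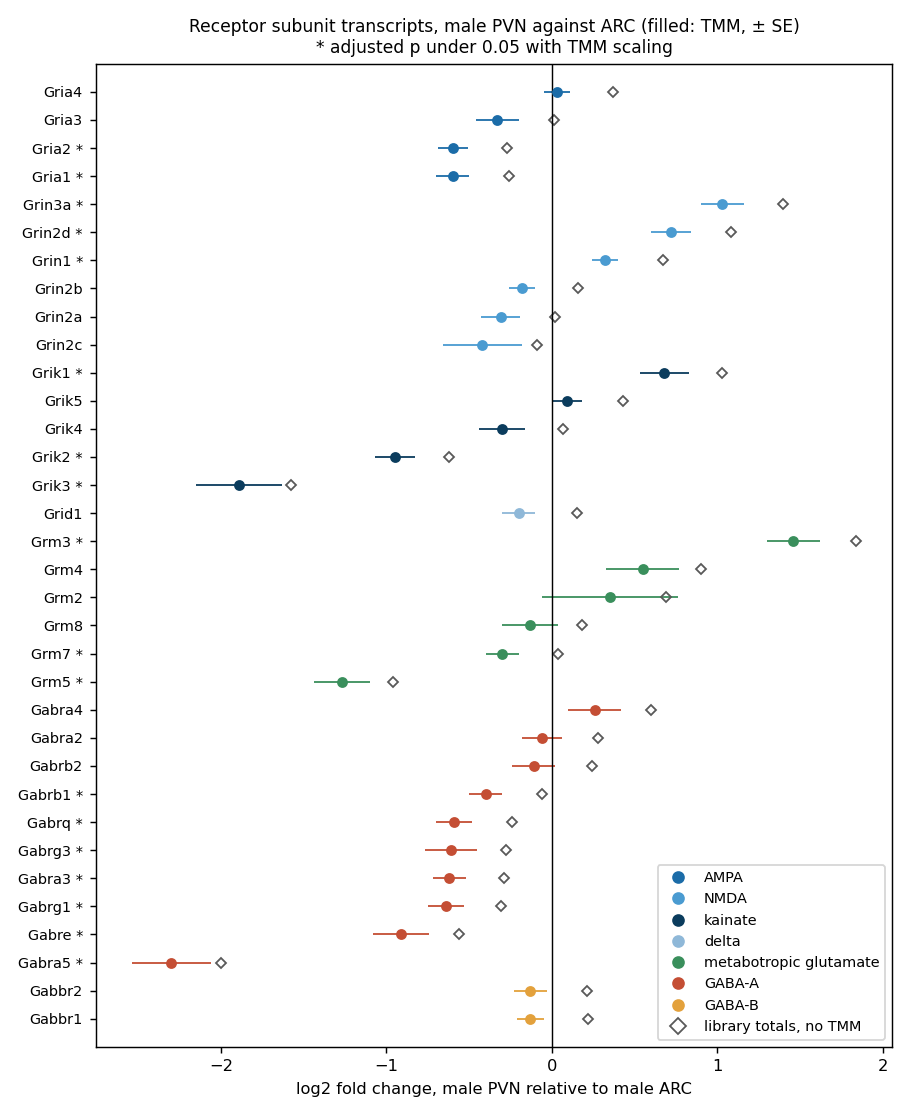
Log2 fold change of male PVN relative to male ARC (horizontal axis) for 34 members, ordered by family. Filled points are TMM-scaled edgeR estimates with the standard error (SE), open diamonds the estimates with library totals, and stars mark an adjusted p under 0.05 with TMM. Grm6, Gabrd, Gabrp, Gabrr2 and Grin3b, whose SE exceeded 0.5, are not drawn. The diamonds sit to the right of the filled points throughout, while Gabra5, Grik3 and Grm5 stay left of 0 and Grm3, Grin3a, Grin2d and Grik1 right of 0 on either scale.

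Of the GABA-A genes, 16 were tested with TMM, and 1 was higher and 8 were lower in PVN. Gabra5 showed the steepest deficit. Leaving out library 15, its level was 0.447 to 27.6 CPM in male PVN (median 11.2) and 0.448 to 16.0 CPM in female PVN (median 8.31), against 18.9 to 107 CPM in ARC (median 50.9). In 16 of these 18 male PVN libraries Gabra5 lay below every ARC library. The log2 fold change of male PVN relative to ARC was -2.30 (SE 0.24, edgeR adjusted p = 1.16e-10), or -2.0 with library totals and -3.64 with the female PVN in place of the male. Library 15 was the exception among PVN libraries at 79.8 CPM, inside the ARC range.

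Gabre, the epsilon subunit, was lower, with a log2 fold change of -0.91 (SE 0.17, adjusted p = 4.31e-05), and this call was lost with chow-fed males alone (-0.37, adjusted p = 0.272). Gabra3 (alpha3) and Gabrg1 (gamma1) were lower, with log2 fold changes of -0.62 and -0.64. The GABA-B genes were not called, with log2 fold changes of -0.13 for both Gabbr1 and Gabbr2.

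Most GABA-A genes lie in clusters on a few chromosomes (GENCODE coordinates on GRCm38). On chromosome 7, the neighbours Gabrg3 (chr7:56716465-57387188) and Gabra5 (chr7:57407672-57510059) were both lower in PVN, Gabrg3 with a log2 fold change of -0.61. The cluster on the X chromosome holds Gabre (chrX:72255999-72274803), Gabra3 (chrX:72432681-72656848) and Gabrq, the theta subunit (chrX:72825178-72842602), in 587 kb, and all 3 were lower in male PVN, Gabrq with a log2 fold change of -0.59. With the female PVN in place of the male, Gabra3 was called (-0.68, edgeR adjusted p = 0.00441), while Gabre (-0.41, adjusted p = 0.315) and Gabrq (-0.10, adjusted p = 0.779) were not, and in wild-type males on HFD alone the call of Gabrq was lost (-0.54, adjusted p = 0.0891). The cluster on chromosome 5 was mixed, as Gabrg1 (-0.64) and Gabrb1 (-0.40) were lower, while Gabra2 (-0.06) and Gabra4 (0.26) were not called. Gabra4 and Gabrb1, on opposite strands, share 46 exon bases. The calls of Gabrg3, Gabrq and Gabrb1 were lost with library totals. The strand setting of the counting is not given in the sources used here.

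The bases before the start of 6 members are printed because these genes carry the contrast between the nuclei or make up the X cluster. Each is the 250 bases before the RefSeq start on GRCm38.p6, read 5′ to 3′ on the strand of the gene, and capitals mark matches on either strand to the TATA box (spelled TATAAA), to the GC box (spelled GGGCGG) or to the CCAAT box (spelled as its name). None of the marked matches in these windows overlap. Gabra5 lies at chr7:57510060-57510309 on the minus strand, Grik3 at chr4:125490446-125490695 on the plus strand and Grm3 at chr5:9725353-9725602 on the minus strand. Gabre lies at chrX:72274722-72274971 and Gabra3 at chrX:72656808-72657057, both on the minus strand, and Gabrq at chrX:72824928-72825177 on the plus strand.
Gabra5: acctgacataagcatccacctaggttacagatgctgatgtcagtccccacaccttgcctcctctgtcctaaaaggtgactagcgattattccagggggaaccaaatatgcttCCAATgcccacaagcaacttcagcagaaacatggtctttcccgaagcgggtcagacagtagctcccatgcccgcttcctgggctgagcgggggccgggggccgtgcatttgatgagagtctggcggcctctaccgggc
Grik3: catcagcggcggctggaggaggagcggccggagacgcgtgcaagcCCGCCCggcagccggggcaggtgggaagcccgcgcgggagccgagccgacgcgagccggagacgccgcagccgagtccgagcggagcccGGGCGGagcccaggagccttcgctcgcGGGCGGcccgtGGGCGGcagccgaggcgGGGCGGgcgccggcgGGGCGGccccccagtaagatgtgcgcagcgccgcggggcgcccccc
Grm3: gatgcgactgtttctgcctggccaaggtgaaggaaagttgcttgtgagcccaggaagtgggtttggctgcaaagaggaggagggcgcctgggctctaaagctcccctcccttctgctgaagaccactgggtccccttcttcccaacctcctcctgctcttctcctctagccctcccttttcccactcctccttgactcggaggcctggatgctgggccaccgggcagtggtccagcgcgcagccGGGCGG
Gabre: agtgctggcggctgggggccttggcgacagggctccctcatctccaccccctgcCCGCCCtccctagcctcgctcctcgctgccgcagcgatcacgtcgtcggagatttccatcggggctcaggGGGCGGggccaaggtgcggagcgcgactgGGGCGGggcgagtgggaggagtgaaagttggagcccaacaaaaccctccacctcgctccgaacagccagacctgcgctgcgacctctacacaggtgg
Gabra3: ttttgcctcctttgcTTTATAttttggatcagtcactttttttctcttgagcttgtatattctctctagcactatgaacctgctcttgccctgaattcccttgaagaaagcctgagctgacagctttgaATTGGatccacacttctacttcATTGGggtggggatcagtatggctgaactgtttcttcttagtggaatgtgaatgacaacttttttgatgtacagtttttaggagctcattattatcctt
Gabrq: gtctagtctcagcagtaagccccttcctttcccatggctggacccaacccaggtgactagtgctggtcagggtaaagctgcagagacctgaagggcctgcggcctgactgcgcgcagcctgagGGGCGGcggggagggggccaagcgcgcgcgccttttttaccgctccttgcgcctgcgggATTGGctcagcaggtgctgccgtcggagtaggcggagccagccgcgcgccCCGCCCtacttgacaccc
The windows have little in common. Grik3 has 42 CpG dinucleotides and 6 GC boxes in 250 bases, where the median of all 32851 promoters in the RefSeq table is 6.0 CpG and 1.31% have 40 or more. The Gabra3 window has 0 CpG, as 7.87% of all promoters have, with 1 TATA box and 2 CCAAT boxes, although those of its neighbours Gabre and Gabrq have 21 and 19 CpG and 3 and 2 GC boxes. RefSeq holds 2 promoters for Gabra3, and only the 1 nearer the GENCODE start is printed and described. Gabra5 and Grm3 have 9 and 8 CpG. A GC box was found in 32.7% of all promoters and in 18 of the 39 promoters that the table holds for 32 members, a CCAAT box in 33.8% and in 16 of the 39, and a TATA box in 12.4% and in 4 of the 39. The match of letters is a description and not a site of binding.

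Of the 18 ionotropic glutamate receptor genes, 4 were higher and 4 lower in PVN with TMM. The NMDA receptor genes called were all higher. Grin3a, whose subunit lowers calcium flow through NMDA receptors, lay at 60.7 to 127 CPM in male PVN without library 15 (median 97.3), 44.9 to 145 CPM in female PVN (median 109) and 18.0 to 68.4 CPM in ARC (median 36.6). Its log2 fold change was 1.03 (SE 0.13, edgeR adjusted p = 1.01e-08), and 15 of 18 male PVN libraries exceeded all ARC libraries. Grin2d, whose subunit gives slowly decaying currents, lay at 15.6 to 57.3 CPM without library 15 (median 36.6), 43.1 to 87.9 CPM in female PVN (median 53.7) and 7.05 to 23.1 CPM in ARC (median 17.4). Every female PVN library and 16 of 18 male PVN libraries exceeded all ARC libraries, and the log2 fold change was 0.72 (SE 0.12, edgeR adjusted p = 1.07e-05). Grin1 was higher, with a log2 fold change of 0.32 (SE 0.08, adjusted p = 0.00425), but its call was lost with chow-fed males alone (0.16, adjusted p = 0.46) and with the female PVN (0.35, adjusted p = 0.097). Grin2a, Grin2b and Grin2c were not called.

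The kainate receptor genes split. Grik3, coding for the low-affinity subunit GluK3, lay at 0.223 to 64.7 CPM in male PVN without library 15 (median 12.0), 0 to 30.3 CPM in female PVN (median 15.1) and 27.2 to 74.6 CPM in ARC (median 45.9). All but 2 of the 18 male PVN libraries lay below every ARC library. The log2 fold change of Grik3 was -1.89 (SE 0.26, edgeR adjusted p = 1.81e-07), and that of Grik2 (GluK2) was -0.95 (SE 0.12, adjusted p = 1.12e-08). Grik1 (GluK1) went the other way, at 11.6 to 48.0 CPM without library 15 (median 23.9) and 19.1 to 70.0 CPM in female PVN (median 33.7) against 5.79 to 24.3 CPM in ARC (median 11.0), a log2 fold change of 0.68 (SE 0.15, edgeR adjusted p = 0.000942). In wild-type males on HFD alone Grik1 was not called (0.37, adjusted p = 0.326). Grik4 and Grik5 were not called with TMM. Of the AMPA receptor genes, Gria2 was called lower under both scalings, with a log2 fold change of -0.60 with TMM, at 154 to 352 CPM without library 15 (median 226) against 195 to 379 CPM in ARC (median 289). In wild-type males on HFD alone Gria2 was not called (-0.36, adjusted p = 0.124).

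Of the 8 metabotropic glutamate receptor genes, 2 were higher and 3 lower in PVN with TMM. Grm3 lay at 17.6 to 77.1 CPM in male PVN without library 15 (median 48.3), 22.7 to 94.8 CPM in female PVN (median 50.9) and 5.62 to 21.3 CPM in ARC (median 13.1). In 17 of 18 male PVN libraries and in all female PVN libraries Grm3 exceeded every ARC library, and its log2 fold change was 1.46 (SE 0.16, edgeR adjusted p = 2.16e-10). Grm5 was lower, at 35.7 to 153 CPM without library 15 (median 61.8) against 45.5 to 244 CPM in ARC (median 133), a log2 fold change of -1.27 (SE 0.17, edgeR adjusted p = 5.11e-08). In wild-type males on HFD alone, where ARC levels of Grm5 were low, the difference was -0.50 (adjusted p = 0.361). Grm6 was higher, with a log2 fold change of 3.43 (SE 0.69, adjusted p = 0.000213), but from a median of 1.92 CPM without library 15 and 0 in ARC. With the female PVN in place of the male, the estimate of Grm6 had the opposite sign (-3.85, adjusted p = 0.198).

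**Figure D2:**
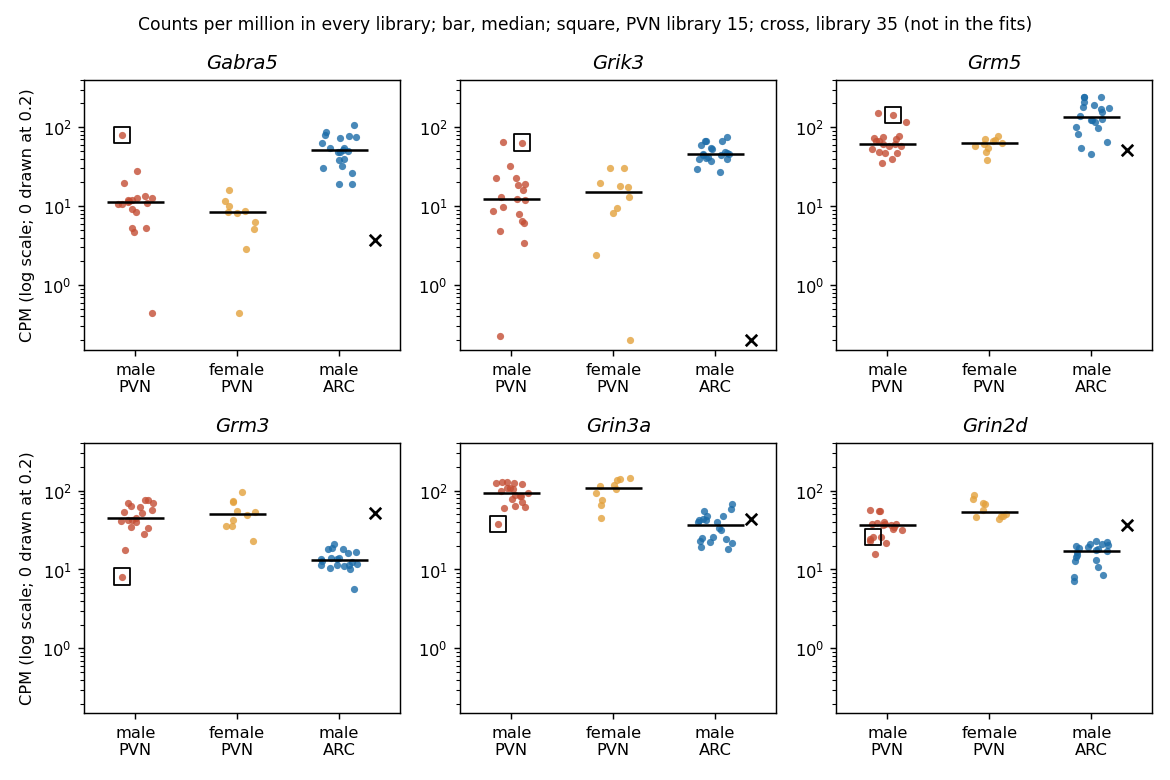
CPM on a log axis of Gabra5, Grik3, Grm5, Grm3, Grin3a and Grin2d in each male PVN, female PVN and male ARC library, with the median as a bar and values of 0 drawn at 0.2. Squares mark PVN library 15, which lies with the ARC libraries for Gabra5 (79.8 CPM) and Grik3 (64.0 CPM), and crosses mark library 35, labelled ARC and not in the fits, which lies with the PVN libraries for Grm3 (51.6 CPM).

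The female PVN, which was sequenced in a pool of its own, gave a further PVN group to set against the same ARC libraries. With the chow-fed female PVN in place of the male PVN, 18 of 43 members were called (4 higher, 14 lower; 11.1% of all genes were called), and 15 of these were among the 22 called with the male PVN. The log2 fold changes were -3.64 for Gabra5, -2.26 for Grik3 and -2.06 for Grm5, and 1.41 for Grm3, 1.17 for Grin2d, 1.14 for Grik1 and 0.77 for Grin3a. Both comparisons use the ARC libraries, and the female contrast differs from the male in sex as well as in pool. Without library 15, 23 members were called in males (7 higher, 16 lower), where 17.6% of all genes were called. In bulk samples such as these, fewer cells of a type and less RNA per cell cannot be told apart. Beside the receptor genes, with TMM 4 of 4 endothelial markers were higher in PVN (their sum was 59.0 to 234 CPM against 34.3 to 87.0 CPM in ARC), and 3 of 5 astrocyte, 4 of 5 oligodendrocyte and 2 of 2 ventromedial hypothalamus markers were lower. Of 6 markers of all neurons, 1 was higher and 3 were lower with TMM. The summed CPM of these neuron markers had a median of 1141 in male PVN and 1054 in ARC. The part of all these markers in the receptor differences was not tested.

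The composition of each receptor class was expressed as the share of a subunit in the summed CPM per kb of its class in the same library, in which any scaling between libraries cancels. Among the 6 GABA-A alpha subunits, Gabra5 made up a median of 6.22% in male PVN (0.398 to 32.4%, the highest being library 15), 3.2% in female PVN and 25.4% in ARC (17.3 to 34.8%). The median share of Gabra5 was thus higher in ARC than in either PVN group.

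Among the 4 GluN2 subunits, Grin2d took 35.5% in male PVN (20.8 to 47.0%), 42.9% in female PVN and 21.8% in ARC (13.4 to 32.8%), beside 43.5%, 43.4% and 49.2% for Grin2b. Among the metabotropic genes Grm3 and Grm5 exchanged places, with Grm3 at 41.8%, 46.5% and 13.3% and Grm5 at 17.5%, 15.8% and 41.7%. Among the kainate receptor genes the share of Grik3 was 4.82%, 5.26% and 20.5%, and that of Grik1 14.5%, 15.7% and 7.04%. The AMPA receptor genes showed no such exchange, as Gria1 held 57.7%, 63.3% and 62.3%. Gabrg1 held 21.1%, 20.7% and 35.0% of the gamma subunits.

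**Figure D3:**
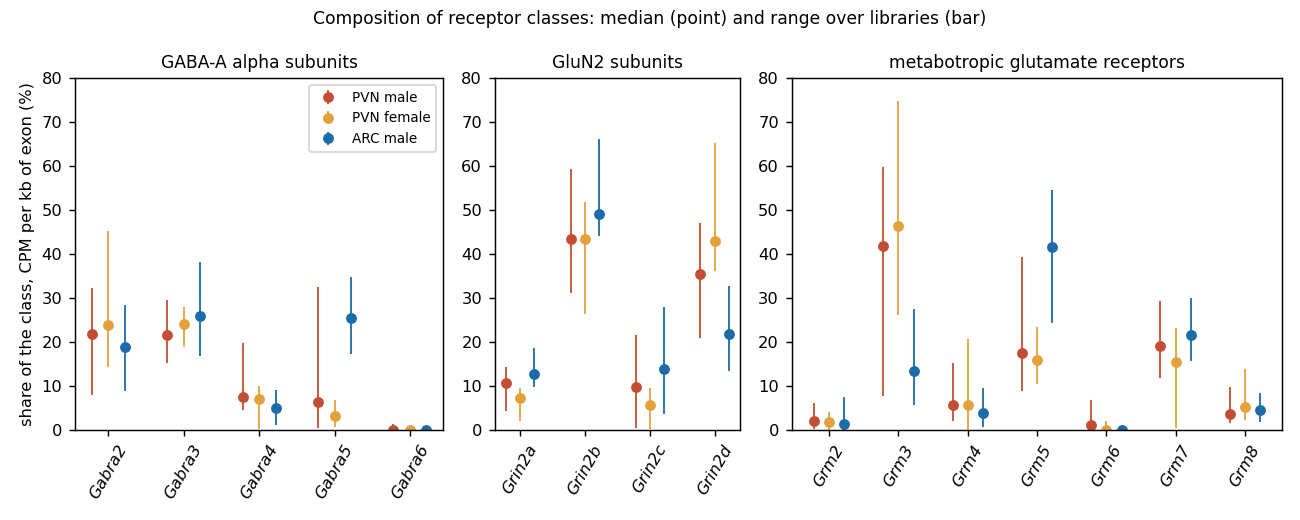
Share (%) of each subunit in the summed CPM per kb of its class, for 5 GABA-A alpha subunits, the 4 GluN2 subunits and 7 metabotropic glutamate receptors. Points are medians and bars the range over the 19 male PVN, 10 female PVN and 20 male ARC libraries, and Gabra5 and Grm5 have their higher medians in ARC, Grin2d and Grm3 in PVN.

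Ratios of 2 members in the same library, each per kb, showed these exchanges library by library. The pairs were chosen after their values were seen and are given with no test. Grm3 over Grm5 was above 1 in 16 of the 18 male PVN libraries other than 15, in 10 of 10 female PVN libraries and in 0 of 20 ARC libraries, and at 0.193 in library 15. Grik1 over Grik3 was likewise above 1 in 16 of 18, 10 of 10 and 0 of 20 libraries. Grin2d over Grin2b had medians of 0.862 in male PVN without library 15, 0.971 in female PVN and 0.454 in ARC. Library 15 lay on the ARC side for the first ratio and for Grik1 over Grik3 (0.17), while a pair of other male PVN libraries lay below 1 for Grm3 over Grm5 and for Grik1 over Grik3.

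Further genes of glutamate and GABA transmission were followed as a list of 61 transporters, enzymes, auxiliary subunits, scaffolds and ligands. With TMM, 24 of the 61 were called between the nuclei, 8 higher and 16 lower in PVN (8.82% and 7.13% of all genes). With library totals 25 were higher and 3 lower (30.5% and 2.48% of all genes). Those lower under both were Gad1, which makes GABA, Slc32a1, which loads it into vesicles, and Slc17a8, a vesicular glutamate transporter, at log2 fold changes of -1.61, -0.96 and -2.71. Of the 8 higher under both, Shisa6 (an AMPA receptor auxiliary subunit), Cbln2 (a cerebellin that binds delta receptors) and Grip2 (a scaffold of AMPA receptors) had the largest, 0.90, 0.88 and 0.86. In the comparisons of genotype, 0 of the 61 were called with edgeR.

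The effect of the Nnat+/-p genotype was asked within each tissue and diet, and a gene was called at an adjusted p under 0.25. In males on chow, 0 of 43 members were called in the PVN of obese Nnat+/-p against wild-type mice (0.0256% of all genes were called), 0 of 43 in non-obese against wild-type mice (0.0128%) and 0 of 43 between obese and non-obese mice (0.0%). In the female PVN, 0 of 39 members were called in the same 3 comparisons (0.0129%, 0.00646% and 0.0% of all genes). In the ARC, 0 of 42 were called in obese against wild-type mice (0.0205%), in non-obese against wild-type mice (0.0136%) and between the Nnat+/-p classes (0.00682%). On HFD, 0 of 43 members were called between the genotypes in PVN (0.00569%) and 0 of 42 in ARC (0.0127%). DESeq2 and limma voom also called 0 members in all 11 comparisons. Of all genes, DESeq2 called 20, 2 and 0 of 15618 in the 3 male PVN comparisons on chow. In the female PVN it called 82, 47 and 52 of 15485 genes, and in ARC on chow 2, 1 and 1 of 14658. Between the genotypes on HFD, DESeq2 called 1 of 17576 genes in PVN and 1 of 15753 in ARC. Limma voom called 0 to 9 genes in a comparison. At an unadjusted p under 0.05, edgeR gave 7, 5 and 1 members in the 3 male PVN comparisons on chow (16.3%, 11.6% and 2.33% of the members, against 3.52%, 2.56% and 1.66% of all genes), and 0, 0 and 0 in female PVN (against 3.18%, 4.0% and 3.06% of all genes). In ARC it gave 5, 0 and 2 members (11.9%, 0.0% and 4.76%, against 2.59%, 1.9% and 4.25% of all genes), and on HFD 1 in PVN and 1 in ARC (2.33% and 2.38%, against 0.99% and 4.54%). Without library 15 the counts of the first 2 male PVN comparisons became 3 and 3 of 44 members, beside 707 and 435 of 17871 genes. In these 2 comparisons other markers moved as well. The 4 forebrain excitatory markers tested had median log2 fold changes of -2.0 in obese and -2.04 in non-obese against wild-type mice, with 1 called lower in each, and the 2 ventromedial hypothalamus markers -2.45 and -2.64, with 0 called. The forebrain markers summed to 207, 513 and 774 CPM in wild-type libraries, the highest being library 15, and to 119 to 278 CPM in obese and 135 to 288 CPM in non-obese libraries. In library 15 the sum came from Camk2a (378 CPM), Nrgn (226 CPM) and Nptx1 (171 CPM), with 0 counts of Slc17a7 and Neurod6. Camk2a, Nrgn and Nptx1 had medians of 261, 74.0 and 70.1 CPM in ARC and 164, 12.5 and 27.3 CPM in the other male PVN libraries. The part of the forebrain and ventromedial markers in the receptor values was not tested.

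The members with the smallest p in the male PVN are given as values. Gabra2 (alpha2) lay at 203, 95.7 and 82.7 CPM in the chow-fed wild-type libraries (the last being library 15), at 98.9, 88.6 and 101 CPM in non-obese and at 23.0, 69.8, 61.5 and 62.6 CPM in obese Nnat+/-p libraries. Every obese library lay below every wild-type and every non-obese library, but how many of all genes did so was not counted. The log2 fold change of obese against wild-type mice was -1.03 (SE 0.33, edgeR adjusted p = 1.0), or -1.16 without library 15 and -0.71 without wild-type library 13. Against non-obese mice it was -0.73 (SE 0.33, adjusted p = 1.0), or -0.45 without library 16.

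Grik1 lay at 11.6, 14.6 and 8.14 CPM in the wild-type libraries (the last being library 15), at 29.3, 23.4 and 31.2 CPM in non-obese and at 48.0, 16.1, 16.7 and 23.4 CPM in obese Nnat+/-p libraries. Every Nnat+/-p library exceeded every wild-type library, and here too the share of all genes that did so was not counted. The log2 fold changes were 1.27 (SE 0.42, edgeR adjusted p = 1.0) in obese and 1.35 (SE 0.44, adjusted p = 1.0) in non-obese mice, or 1.17 and 1.24 without library 15. Without obese library 16, the log2 fold change of obese mice was 0.9. Both comparisons use the same 3 wild-type libraries.

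Gabra5 and Grik3 turned on library 15. Gabra5 lay at 8.46, 12.6 and 79.8 CPM in wild-type libraries, the last being library 15, and at 9.1 to 11.0 CPM in non-obese libraries, with a log2 fold change of -1.83 (SE 0.78, edgeR adjusted p = 1.0) that became 0.09 without library 15. In obese libraries Gabra5 lay at 0.447, 11.9, 11.8 and 12.8 CPM, with a log2 fold change of -1.87, or 0.04 without library 15. Grik3 lay at 16.0, 18.3 and 64.0 CPM in wild-type, again with library 15 last, and at 0.223, 6.55, 6.04 and 19.0 CPM in obese libraries, a log2 fold change of -1.97 (SE 0.73, adjusted p = 1.0), or -0.81 without library 15.

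**Figure D4:**
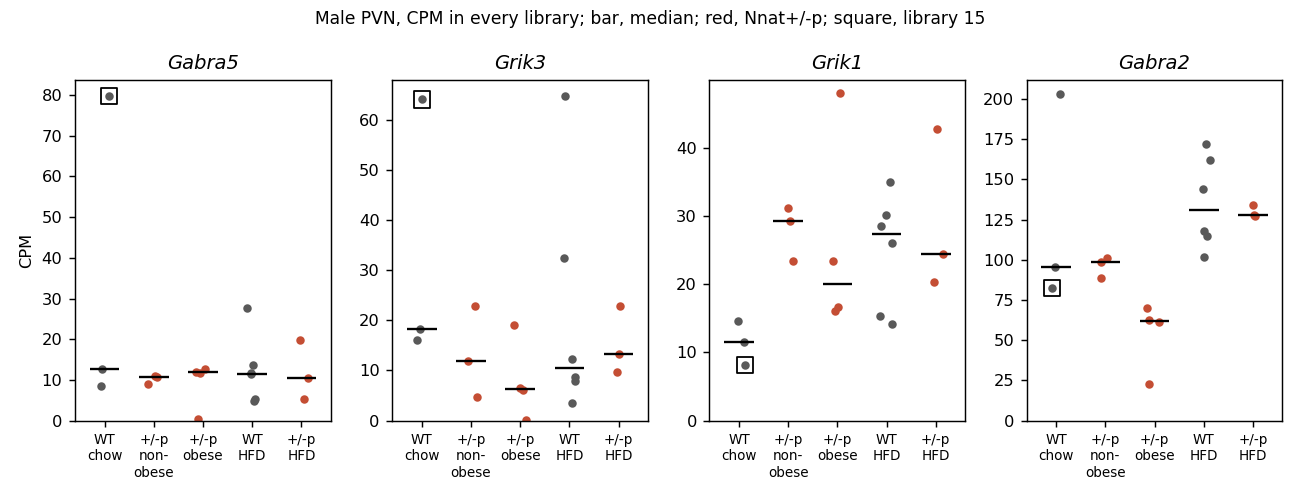
CPM of Gabra5, Grik3, Grik1 and Gabra2 in each male PVN library by group, wild-type in grey and Nnat+/-p in red, with group medians as bars and library 15 in a square. Library 15 is the highest for Gabra5 at 79.8 CPM and lies with the chow-fed wild-type libraries for Grik1 (8.14 CPM) and Gabra2 (82.7 CPM).

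In the female PVN the smallest p values belonged to Grid1, a delta receptor gene, which lay at 64.3, 113, 65.8 and 84.4 CPM in wild-type and 50.9, 47.7 and 58.6 CPM in obese libraries (log2 fold change -0.72, SE 0.34, edgeR adjusted p = 0.999), and in non-obese mice to Gabrb2, the beta2 subunit (0.93, SE 0.53). The next members were Grik5 (-0.54) and Gabrg3 (0.69) in obese mice and Grm3 (0.60) and Gria3 (-0.65) in non-obese mice. Between obese and non-obese females they were Grik1 (-0.87), Grm3 (-0.60) and Gabre (0.71). Single libraries carried much of these values. Without non-obese library 10, Gria3 was at -0.23 and, between obese and non-obese mice, Grik1 at 0.0 and Gabre at 0.32. Without wild-type library 2, Grid1 was at -0.44 and Gabrg3 at 0.42, and without wild-type library 3 Grik5 was at -0.35. Grik1 and Gabra2, which had the smallest p in the male PVN, were not among the first 3 in female Nnat+/-p mice against wild-type mice.

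In the ARC, Grin3a lay at 47.9 CPM in both wild-type libraries on chow, at 44.2, 55.4, 39.6 and 68.4 CPM in non-obese and at 25.3, 42.2, 25.9 and 21.7 CPM in obese Nnat+/-p libraries. All obese libraries lay below both wild-type libraries, and 3 of the 4 lay below all non-obese libraries. The share of all genes with such an order was not counted. The log2 fold changes of obese mice were -0.79 against wild-type (SE 0.29, edgeR adjusted p = 1.0) and -0.76 against non-obese mice (SE 0.24, adjusted p = 1.0). Grin3b was at 0 counts in every obese library and low elsewhere, and Gabra2 had a log2 fold change of -0.70 in obese against wild-type mice. In non-obese against wild-type mice Grik4 (-0.62), Grm4 (0.84) and Grm8 (-0.60) had the smallest p, all above 0.05, and Grm8 differed by 0.59 between obese and non-obese mice. Without wild-type library 33, Gabra2 was at -0.33, and without wild-type library 34, Grik4 was at -0.34 and Grm4 at 0.43. Between obese and non-obese mice, Grin3a was at -0.50 without library 43 and Grm8 at 0.38 without library 41. On HFD, Grm5 had a log2 fold change of 0.60 in Nnat+/-p ARC (SE 0.22, adjusted p = 0.999), followed by Gria1 (0.31) and Grm8 (0.55), and without Nnat+/-p library 53 Grm5 was at 0.37 and Grm8 at 0.30. In PVN on HFD the smallest p belonged to Gabrd (-4.05), a gene near 0, followed by Grin3b (-3.42).

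The effect of HFD was asked in wild-type males. In the PVN, 2 of 43 members were called, 1 higher and 1 lower, where 1.43% of all genes were called, 0.313% higher and 1.12% lower. Grik1 lay at 11.6, 14.6 and 8.14 CPM on chow and at 14.2 to 35.0 CPM (median 27.4) in the 6 HFD libraries, 5 of which exceeded all chow libraries. The log2 fold change was 1.2 (SE 0.35, edgeR adjusted p = 0.173), or 1.11 without library 15. With library totals, 1.87% of all genes were called (0.193% higher, 1.68% lower), and Gabrp was the 1 member called, Grik1 being at 1.12 (adjusted p = 0.25). The call of Grik1 was lost on leaving out chow library 13 or any 1 of HFD libraries 23, 25, 26 and 27, with adjusted p values of 0.287 to 0.373. The chow libraries are those that the Nnat+/-p mice were set against, and Nnat+/-p libraries on HFD lay at 20.4, 24.4 and 42.8 CPM.

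Gabrp was called lower on HFD, but all 25 of its counts on chow came from library 13. Libraries 14 and 15 and all 6 HFD libraries held 0 counts, so that a floor of 3 counts over the HFD group made its pooled level at least 25-fold lower on HFD, and without library 13 the log2 fold change was 0.0. Its call was also lost on leaving out any 1 of HFD libraries 23, 25, 26, 27 and 28 (adjusted p 0.296 to 0.352). Without library 15, 4 members were called in the PVN, Grik1 (1.11), Grid1 (0.76) and Gabrg1 (0.83) higher and Gabrp lower, and 5.42% of all genes were. Gabra5, at -1.52 and not called with all libraries (SE 0.60, adjusted p = 0.354), was at 0.42 without library 15, while leaving out any 1 of libraries 13, 14, 16 and 24 gave an adjusted p of 0.207 to 0.23 and a negative sign. Beside this comparison, 3 of 4 forebrain and 2 of 2 ventromedial hypothalamus markers tested were lower on HFD, and library 15, a chow library, holds 774 and 106 CPM of these sets. In that library the forebrain sum came from Camk2a, Nrgn and Nptx1, with 0 counts of Slc17a7 and Neurod6. Among the 61 further genes, Slc17a7, a vesicular glutamate transporter, was called lower (-5.15, edgeR adjusted p = 0.0739). It lay near 0, with a median of 0.274 CPM over the male PVN libraries other than 15 and a highest value of 40.5 CPM.

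In the ARC, 1 of 42 members was called, higher on HFD, where 1.16% of all genes were called, 0.495% higher and 0.66% lower. Gabre lay at 28.8 and 22.3 CPM on chow and at 27.3 to 93.0 CPM (median 48.6) in the 6 HFD libraries, 5 of which exceeded both chow libraries. Its log2 fold change was 1.22 (SE 0.36, edgeR adjusted p = 0.231), and with library totals it was 1.09 and not called (adjusted p = 0.348). The call was also lost on leaving out any 1 of libraries 33, 34, 36, 38, 46, 49 and 51, with adjusted p values of 0.259 to 0.874.

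More members of the ARC leaned lower on HFD than higher. At an unadjusted p under 0.05 there were 11 members (26.2%, against 8.54% of all genes), and the median log2 fold change of the 42 members was -0.34 against 0.02 for all genes. With library totals, 1 member was called, and it was lower on HFD, whereas the 1 called with TMM was higher. With library totals 0.819% of all genes were called, 0.229% higher and 0.59% lower. Gabra5 lay at 74.8 and 72.5 CPM on chow and at 18.9 to 54.6 CPM (median 31.3) on HFD, with all 6 HFD libraries below both chow libraries (log2 fold change -0.94, SE 0.31, adjusted p = 0.288), and Grm5 at 140 and 178 CPM on chow and 45.5 to 122 CPM (median 81.3) on HFD (-0.79, SE 0.27, adjusted p = 0.317). Gabbr2, Grm7 and Grin2a were among further members with all 6 HFD libraries below both chow libraries, and how many of all genes did so was not counted. Leaving out any 1 of libraries 43, 45, 48, 50 and 53 brought Gabra5 to an adjusted p of 0.165 to 0.25, under the threshold. Grik4, the other high-affinity kainate subunit, was at -0.98 (adjusted p = 0.298). In the same libraries the markers of all neurons summed to 394 to 1052 CPM on HFD against 1132 to 1195 CPM on chow, the oligodendrocyte markers to 163 to 602 against 699 to 818 CPM and the ventromedial hypothalamus markers to 2.22 to 26.9 against 47.3 to 81.6 CPM, while the ARC markers summed to 76.8 to 600 against 43.0 to 48.9 CPM. The sum of all members was likewise 1960 to 3311 CPM on HFD and 3360 to 3482 CPM on chow. The part of these markers in the receptor values was not tested, and the chow group rests on 2 libraries. Of the 61 further genes, Cbln1, a cerebellin, and Shank1, a scaffold of excitatory synapses, were called lower on HFD in the ARC (-1.70 and -1.04, adjusted p = 0.240 and 0.112).

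**Figure D5:**
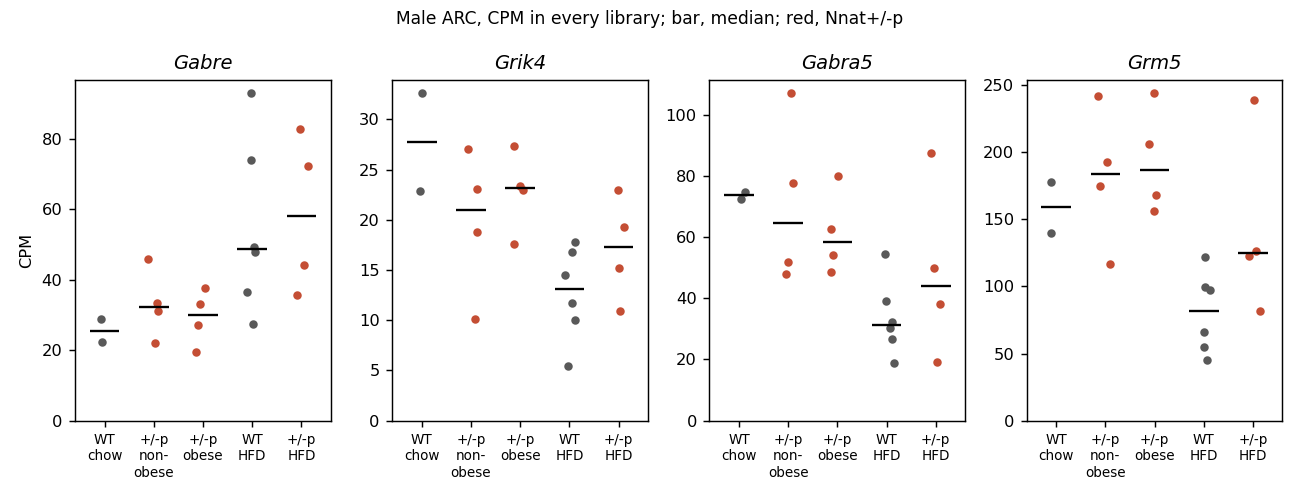
CPM of Gabre, Grik4, Gabra5 and Grm5 in each male ARC library by group, wild-type in grey and Nnat+/-p in red, with group medians as bars. The 6 wild-type HFD libraries lie below both wild-type chow libraries for Gabra5 and Grm5, and 5 of them lie above both for Gabre.

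Whether the effects differed between the nuclei was tested as an interaction. For the diet effect, PVN minus ARC, 0 of 44 members were called with edgeR (0.0187% of all genes were called). Of the 44, 5 had an unadjusted p under 0.05, against 5.62% of all genes, or 6 without library 15 (7.99% of all genes). For the effect of the obese Nnat+/-p class, 0 of 44 members were called (0.0% of all genes). Here 9 of the 44 had an unadjusted p under 0.05, against 6.96% of all genes, or 2 without library 15 (7.04% of all genes).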

How the data were processed

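RNA of laser-captured PVN and ARC was made into libraries from picogram amounts with a stranded total RNA kit (SMARTer Pico) and sequenced as single reads of 50 bases. The authors deposited counts per gene and library, not normalized, 1 table for each of male PVN, female PVN and male ARC, made from STAR 2.5.0a alignments to GRCm38 (the submitters' processing notes). The counting tool, annotation release and strand setting are not given in the sources used here. Groups come from the sample labels.

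From the counts, CPM was computed over each library's total, and genes were tested with edgeR 4.0.16 (quasi-likelihood, TMM, filterByExpr with a minimum count of 10, Benjamini-Hochberg over all genes tested) in R 4.3.3, with DESeq2 1.42.0 and limma 3.58.1 (voom with quality weights) as alternatives. Genes were called at an adjusted p under 0.25, or under 0.05 between the nuclei. The scripts were tested on simulated data with known changes. Promoters came from RefSeq (GRCm38.p6), for 32 of 47 members. The number of libraries and their totals limit the precision. The members, gene lists and tests were chosen with earlier results of these data known. Named with full statistics were called members and, per genotype or diet comparison, the 3 with the smallest unadjusted p, and between the nuclei the 6 largest changes in each direction. Some members, and the results that need them, are not reported here, although counts over the members include them. No deposited column was left unmapped. Other alternatives were RLE factors, no filter on low counts, the compared groups alone, each library left out, libraries 15 and 24 left out, ARC libraries 39 and 40 summed (same labelled weight), mice matched by weight as a block, and, added after the data were seen, library totals, the female PVN in place of the male, library 15 left out and interaction tests.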

Additional observations from a re-analysis of the deposited data

Results flagged for a closer look

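Of 56 groups of 4 to 10 libraries examined for 8 members of the report, 4 held a library far from the others of its group by Dixon's ratio, and chance gives about 1 in 20. Gabra5 was at 0.447 CPM in obese Nnat+/-p PVN library 16, where the other libraries of the group lay at 11.8 to 12.8 CPM. Gabre was at 67.4 CPM in wild-type HFD PVN library 24, against 17.5 to 31.8 CPM in the others. In library 24, Avp was at 0.896, Oxt at 1.25 and Sim1 at 15.9 CPM, and lateral hypothalamus markers summed to 35.8 CPM. Their part in the value of Gabre was not tested. In the ARC on HFD, Grm3 was at 18.3 CPM in wild-type library 47 (others 10.2 to 12.5 CPM) and at 21.3 CPM in Nnat+/-p library 50 (others 11.3 to 12.7 CPM).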

How the results depend on the processing

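In the comparison of the nuclei, 21 to 24 members were called on leaving out each library in turn, 22 with DESeq2 or RLE factors, 23 with voom and 23 without a filter. Of 21400 genes tested, 3585 were called with DESeq2, 3551 with RLE factors and 3776 with voom. Without a filter, 4170 of 41409 genes were called. Wild-type males on HFD alone gave 13 of 39 members (6 higher, 7 lower) and 854 of 12847 genes, and the cause was not tested. All 468 leave-one-out values of the 12 members with the largest called changes, 6 in each direction, kept their direction and call, as did 135 of 143 values under other settings. The exception in direction was Grm6, at -3.85 with the female PVN. The library numbers run from 1 to 53 without repeats and pair no libraries, but with 15 mice matched by genotype, diet and labelled weight as a block 22 of 43 members were called, the same genes as without it. Of all 19460 genes tested there, 2701 were called.

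In the PVN diet comparison, 0 members were called at an adjusted p under 0.05 or with voom, 1 with DESeq2, 1 with only the compared groups, 1 with library totals, 4 without library 15 and 4 without libraries 15 and 24. Of 17576 genes tested, 26 were called at an adjusted p under 0.05, 334 with voom, 469 with DESeq2 and 329 with library totals. With only the compared groups, 213 of 14654 genes were called. The fit without library 15 called 1083 of 19990 genes, and that without libraries 15 and 24 called 974 of 19844. Leaving out each library gave 0 to 4 (0 without HFD library 23, 25, 26 or 27, and 4 without chow library 15). In the ARC diet comparison, 0 were called at an adjusted p under 0.05, 3 with DESeq2, 5 without a filter, 8 with voom, 3 with only the compared groups and 3 with libraries 39 and 40 summed, and leaving out each library gave 0 to 4 (0 without any 1 of libraries 33, 34, 36, 38, 46, 49 and 51, and 4 without HFD library 45). Of 15753 genes tested, 5 were called at an adjusted p under 0.05, 366 with DESeq2 and 700 with voom. Without a filter, 547 of 35231 genes were called. Using only the compared groups, 678 of 13123 genes were called beside 3 of 40 members. With libraries 39 and 40 summed, 276 of 15330 genes were called. Beside Gabre, which was higher, the members called lower on HFD included Gabra5 and Grik4 in all 5 settings with more calls. Grm5 was called lower without a filter and with voom, and Grin2c (-1.14) and Gabrd (-3.15) with voom alone. Of the genotype comparisons, obese against wild-type PVN gave 2 members without a filter (43 of 34476 genes) and HFD ARC 1 (64 of 35231 genes). The count of members was 0 under all other settings run.

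Reversed estimates were Gabra5 in obese against wild-type PVN (-1.87, or 0.04 without library 15), Gabra5 in non-obese PVN (0.09 without library 15, also without 15 and 24, range on leaving out each library -2.32 to 0.09), Gabra5 in the PVN diet comparison (0.42 without library 15 and 0.0 without 15 and 24, range -1.99 to 0.42) and Gabrp (0.0 without library 13, range -7.12 to 0.0). Of 500 leave-one-out values in genotype and diet comparisons, 467 kept direction and call, 17 lost a call, 13 gained one and 3 reversed. With 2 to 4 libraries in most groups and totals from 1479953 counts, differences of the size of the SE values given could not be resolved.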

Other observations

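A pair of libraries outside the fits also held receptor transcripts. Library 35, labelled ARC from a chow-fed wild-type male with the same labelled weight as PVN library 15, had 271324 counts in all, with 55 counts of Avp, 85 of Oxt and 0 of Agrp, Npy and Pomc. It held 1 count of Gabra5 (3.69 CPM), 0 of Grik3, 14 of Grm3 (51.6 CPM), 12 of Grin3a (44.2 CPM) and 10 of Grin2d (36.9 CPM), values below the ARC range for Gabra5 and Grik3 and above it for Grm3 and Grin2d, on few counts. Library 32, labelled ARC from an Nnat+/-p male on HFD but deposited in the PVN count table and therefore put in no group here, held 2034 counts of Avp and 4293 of Oxt, with Gabra5 at 9.12, Grik3 at 19.3, Grm3 at 46.5, Grin3a at 109 and Grin2d at 46.7 CPM.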
